A study of Mus musculus with 4 samples.

Results

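The guanylate-binding proteins (GBPs) and the immunity-related GTPases (IRGs) were examined in 4T1, a metastatic mouse mammary carcinoma line used to model triple-negative breast cancer. The set of 10 genes comprised Gbp2, Gbp3, Gbp4, Gbp5, Gbp6, Gbp7, Gbp9, Irgm1, Igtp and Iigp1, and it was chosen with earlier results of these arrays known, among them a high level on NC replicate 1, the first array of the scramble control. The row for a gene was selected on the mean log2 value of the 4 arrays, as the brightest among rows that carry its symbol and no other. This gave a value for 8 of the 10 genes, out of 30142 genes with such a row. Gbp5 and Gbp6 each occurred in 1 row, which carried several symbols, and got no value.

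RNA was hybridised to 4 whole-transcript arrays in 2 groups of 2. The first group held 4T1 cells with a scramble control (NC), and the second held 4T1 cells with short hairpin silencing of MCT-1 (shMCT-1), whose clones were kept for 2 weeks in medium with 0.5 μg/ml puromycin. The sources used here do not say whether the NC cells saw puromycin, nor whether an array stands for 1 clone or a pool. The submitters call the 2 arrays of a group independent biological replicates, and p-values measure only the spread between these samples.

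GBPs are large GTPases of the dynamin superfamily that assemble on the membranes of bacteria and of vacuoles that hold pathogens, and help to break them open. IRGs are smaller GTPases of the same defence, in which regulators with a GMS motif (Irgm1, Igtp) stay on the cell's own membranes and hold effectors with a GKS motif (Iigp1) inactive there. Both families are expressed at low levels in most resting mouse cells and are induced by interferons, through promoter elements known as gamma-activated sites and interferon-stimulated response elements (ISREs).

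Promoter windows are shown for 5 measured members that were high on the same array, NC replicate 1, and have a window in the sequence table used here. Gbp4 and Gbp9 have none there. Iigp1, which was not high on that array, was left out by choice and not searched. The sequences are from RefSeq, build GRCm38.p6, and end on the base before the annotated start; the sources used here do not name the build behind the array annotation. Each line holds 120 bases, 5′ to 3′ along the gene, and capitals mark matches to the ISRE core GAAANNGAAA or the gamma-activated site core TTCNNNGAA, searched on both strands.
Gbp2: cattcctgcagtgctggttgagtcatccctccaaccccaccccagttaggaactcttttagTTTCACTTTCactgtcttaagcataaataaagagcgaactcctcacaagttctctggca
Gbp3: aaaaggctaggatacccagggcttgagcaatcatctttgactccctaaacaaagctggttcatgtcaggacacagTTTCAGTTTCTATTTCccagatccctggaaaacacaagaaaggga
Gbp7: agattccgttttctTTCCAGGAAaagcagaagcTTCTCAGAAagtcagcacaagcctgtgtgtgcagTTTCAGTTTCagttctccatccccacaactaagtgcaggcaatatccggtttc
Irgm1: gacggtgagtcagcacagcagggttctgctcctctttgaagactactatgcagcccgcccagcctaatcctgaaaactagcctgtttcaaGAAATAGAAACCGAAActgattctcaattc
Igtp: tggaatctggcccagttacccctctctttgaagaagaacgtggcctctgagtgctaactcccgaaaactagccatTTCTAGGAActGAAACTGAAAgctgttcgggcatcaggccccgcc

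The windows lie at chr3:142620543-142620662 (plus strand, Gbp2), chr3:142559924-142560043 (plus strand, Gbp3), chr3:142530216-142530335 (plus strand, Gbp7), chr11:48871421-48871540 (minus strand, Irgm1) and chr11:58199436-58199555 (plus strand, Igtp). All 5 of these genes had an ISRE core in a window from 250 bases before to 50 after the start. Gbp3 and Irgm1 had a pair of overlapping matches, and a second annotated start of Gbp3 had none. The first base of a match lay between -59 (Gbp2) and -24 (Irgm1) from the start. Over all 32851 such promoter windows, 3.44% held an ISRE core. A gamma-activated site core was found in Gbp7 (2 matches, at -106 and -87) and in Igtp (1 match, at -45), against 8.30% of all windows. These matches are descriptions of letters, and binding was not measured.

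As a check of the labels, Mcts1, the gene that encodes MCT-1, had a log2 expression of 7.86 on NC replicate 1, 8.05 on NC replicate 2, 7.81 on shMCT-1 replicate 1 and 7.89 on shMCT-1 replicate 2. The silenced group was -0.10 from the control (SE 0.122, adjusted p = 0.945 in limma, 95% interval -0.42 to 0.22), so a lower level was not detected and the second group is called the shMCT-1-labelled arrays here. NC replicate 1 stood apart. In 830 of 65956 rows the 2 NC arrays were more than 1 log2 unit from each other. The distance of NC replicate 1 from shMCT-1 replicates 1 and 2 was that large in 609 and 1965 rows. For NC replicate 2 the distances from the same arrays were that large in 311 and 266 rows. The 2 shMCT-1-labelled arrays were that far from each other in 487 rows. The group differences of the GTPases are therefore also given without NC replicate 1. Of the 8 epithelial markers checked for a carcinoma line, all were brighter than the median row, among them the keratins Krt8 and Krt18 and the adhesion molecule Epcam.

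The GBP and IRG genes were high on NC replicate 1 and lower on the other 3 arrays, NC replicate 2 included. For 7 of the 8 measured genes, NC replicate 1 was at least 1 log2 unit above the mean of the other 3 arrays, and these 7 were all above it by more than 2 units. The same was true at 1 unit for 0.705% of all rows and for 1.10% of all genes. The genes were chosen with this contrast known, so it is given as a description with no test. The median excess of NC replicate 1 was 2.88 log2 units over the 8 genes, against -0.025 over all rows.

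**Figure D1:**
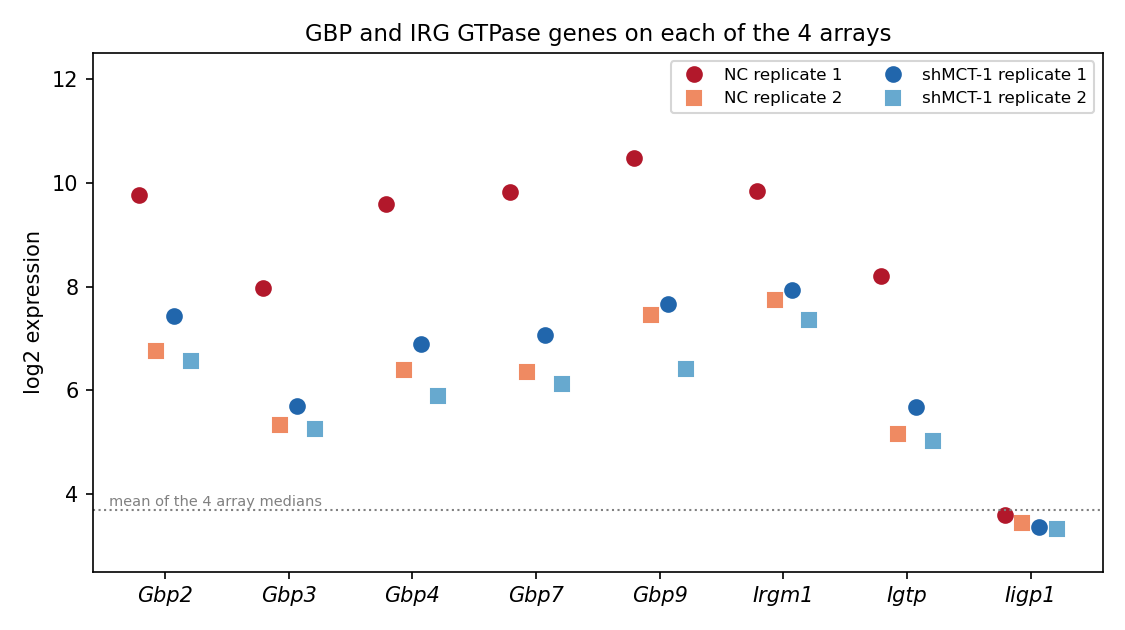
Log2 expression (vertical axis) of the 8 measured GBP and IRG genes (horizontal axis), with 1 point per array and a dotted line at the mean of the 4 array medians. NC replicate 1 lies at least 1.92 log2 units above the highest other array for every gene but Iigp1, whose 4 points lie between 3.33 and 3.61.

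Gbp2, a GBP that restricts Toxoplasma in mouse cells, was 9.77 and 6.75 log2 units on the first and second NC array and 7.42 and 6.56 in the shMCT-1-labelled arrays replicates 1 and 2. NC replicate 1 was thus 7.24-fold above the mean of the other 3 arrays, and NC replicate 2 lay between the 2 arrays labelled shMCT-1. Gbp7, which also acts in the defence of mouse cells against intracellular pathogens, was 9.82 and 6.35 in NC and 7.07 and 6.12 in the shMCT-1-labelled arrays. Its excess on NC replicate 1 was 9.90-fold (3.31 log2 units), the largest of the 8 genes. Gbp3, the third measured GBP of the chromosome 3 cluster, was 7.98 and 5.33 in NC and 5.70 and 5.25 in the shMCT-1-labelled arrays. Its 3 other arrays had an SD of 0.239, the smallest among the 7 genes that were high on NC replicate 1.

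The 2 measured members of the chromosome 5 GBP cluster showed the same array as high. Gbp4 was 9.59 and 6.39 in NC and 6.90 and 5.88 in the shMCT-1-labelled arrays, an excess of 9.19-fold on NC replicate 1. Gbp9 was 10.48 and 7.45 in NC and 7.67 and 6.41 in the shMCT-1-labelled arrays. Gbp9 had the widest spread among the other 3 arrays (SD 0.674), and shMCT-1 replicate 2 was 1.04 below NC replicate 2. For the other 7 genes that distance was 0.51 or less.

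Among the IRG regulators, Irgm1, whose loss in mice impairs resistance to several intracellular pathogens, was 9.84 and 7.75 in NC and 7.92 and 7.36 in the shMCT-1-labelled arrays. Its excess on NC replicate 1 was 4.49-fold (2.17 log2 units), the smallest of the 7 high genes. Igtp, the regulator also named Irgm3, was 8.19 and 5.15 in NC and 5.68 and 5.02 in the shMCT-1-labelled arrays, an excess of 7.51-fold. Both regulators had their highest value on NC replicate 1, which was the case for 23.7% of all rows. For both, NC replicate 2 lay within the range of the shMCT-1-labelled arrays.

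Iigp1, the only effector IRG among the measured members, was the exception among them. It was 3.61 and 3.44 in NC and 3.37 and 3.33 in the shMCT-1-labelled arrays, so that NC replicate 1 was 1.17-fold above the mean of the others. By mean signal the row stood at percentile 39.9 of the table, below the median row, where signals can be compressed. By excess of NC replicate 1 over all 30142 genes, Gbp7, Gbp9 and Gbp4 were at ranks 15, 16 and 17, Igtp at 22, Gbp2 at 25, Gbp3 at 35 and Irgm1 at 61, whereas Iigp1 was at 4099.

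**Figure D2:**
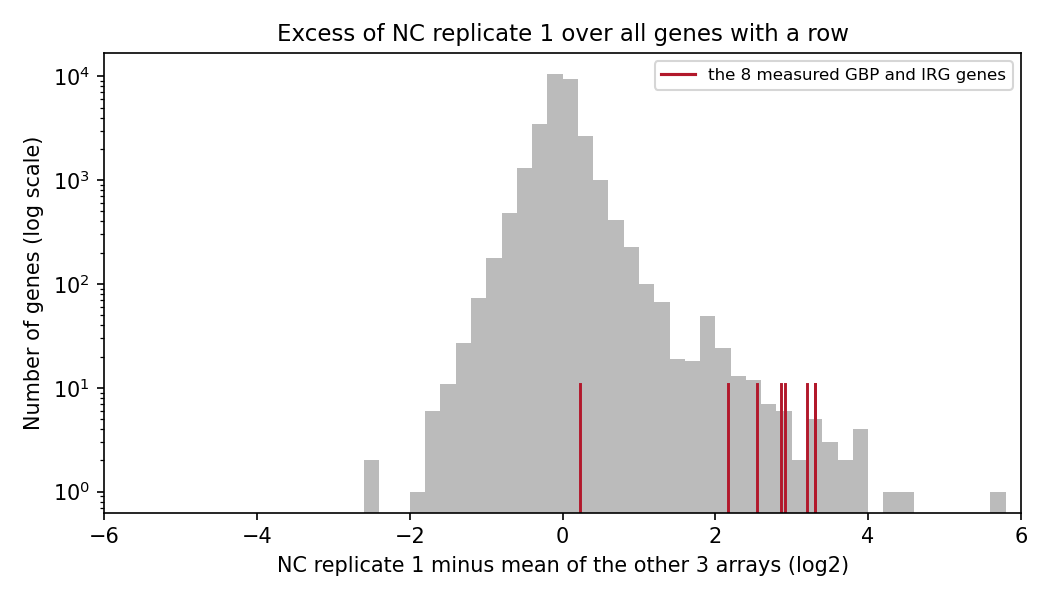
Histogram of the log2 excess of NC replicate 1 over the mean of the other 3 arrays (horizontal axis) for 30142 genes, with the number of genes on a log scale (vertical axis) and red lines at the 8 measured GBP and IRG genes. Lines for 7 genes lie between 2.17 and 3.31 in the upper tail, and that of Iigp1 lies at 0.22.

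The other 3 arrays were not level either. In 7 of the 8 genes the order from high to low was NC replicate 1, shMCT-1 replicate 1, NC replicate 2 and shMCT-1 replicate 2, an order seen in 5.96% of all rows and picked after seeing the values. In Iigp1, NC replicate 2 was above shMCT-1 replicate 1. The array of shMCT-1 replicate 1 exceeded NC replicate 2 in 7 of the 8 genes, against 54.5% of all rows. The median was 0.44 log2 units, with a range from -0.062 (Iigp1) to 0.72 (Gbp7). The array of shMCT-1 replicate 2 was below NC replicate 2 in all 8 genes, by a median difference of -0.21 and from -1.04 (Gbp9) to -0.083 (Gbp3), and 48.0% of all rows had that sign. The SD over these 3 arrays had a median of 0.403 over the 8 genes, against 0.127 over all rows and 0.144 over rows brighter than the median row.

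The comparison named by the design, shMCT-1 against NC, asked how MCT-1 silencing altered expression. All 8 genes had a lower mean in the shMCT-1-labelled arrays, a sign shared by 43.6% of all rows, and the median log2 difference was -1.29, against 0.024 over all rows. With limma fitted over all 65956 rows, 0 of the 8 genes passed at an adjusted p under 0.05 and 0 had an unadjusted p under 0.05. Among all rows 0% passed adjusted and 5.61% had an unadjusted p under 0.05. Both arrays labelled shMCT-1 lay below both NC arrays in 1 of the 8 genes, Iigp1, and in 14.0% of all rows. With 2 arrays against 2, an exact two-sided permutation test cannot give a p below 0.333.

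Gbp9 had the largest difference, at 8.97 ± 2.14 in NC and 7.04 ± 0.89 in the shMCT-1-labelled arrays (SD, n = 2 each), or -1.93 on the log2 scale (SE 1.07, 95% interval -4.74 to 0.89, adjusted p = 0.897, limma). Gbp4 had a difference of -1.60 (SE 1.10) and Gbp7 one of -1.49 (SE 1.18). The SD within NC was 2.26 for Gbp4 and 2.45 for Gbp7, larger than the difference in each case. For Igtp, Gbp2, Gbp3 and Irgm1 the differences were -1.32, -1.27, -1.18 and -1.15, with SDs within NC between 1.48 and 2.15. Iigp1 had a difference of -0.17 (SE 0.116), with SDs of 0.120 in NC and 0.029 in the shMCT-1-labelled arrays. The adjusted p over the 8 genes ran from 0.897 to 0.914, and every 95% interval included 0.

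Without NC replicate 1 the median difference was 0.072, and without NC replicate 2 it was -2.81. In the first case 5 genes had a higher mean in the shMCT-1-labelled arrays, Gbp2 (0.24), Gbp7 (0.24), Igtp (0.20), Gbp3 (0.14) and Gbp4 (0.0035), and 3 had a lower one, Gbp9 (-0.41), Irgm1 (-0.10) and Iigp1 (-0.083). Each of these fits kept 1 NC array, so the spread was borrowed from the shMCT-1-labelled arrays and only the size of the difference is read. The size and, for 5 genes, the sign of the group difference thus rested on NC replicate 1.

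**Figure D3:**
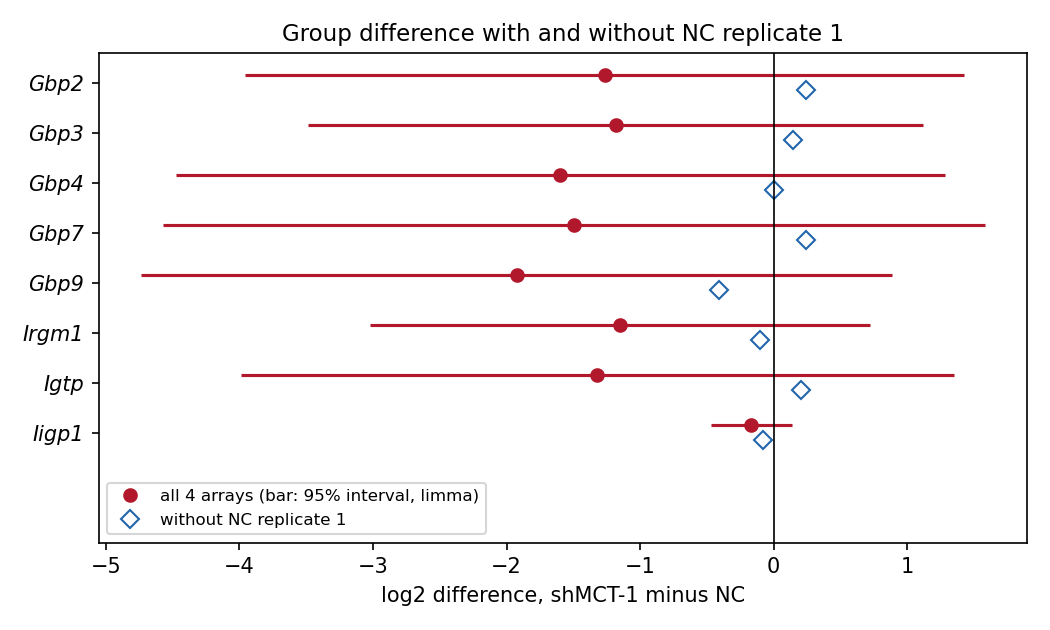
Log2 difference, shMCT-1 minus NC (horizontal axis), for each of the 8 measured genes (vertical axis), from all 4 arrays (filled points, with the 95% interval of limma) and without NC replicate 1 (open diamonds, no interval drawn). The filled points lie between -1.93 and -0.17 with intervals that include 0, and the diamonds lie between -0.41 and 0.24.

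Other genes of the same families and of the interferon pathway were read from 10 lists with 80 genes, 71 of them measured. In the group comparison 0 of the 71 passed adjusted over all rows and 3 had an unadjusted p under 0.05 (limma), against 5.61% of all rows. The mean was lower in the shMCT-1-labelled arrays for 46 of the 71 and higher for 25, against 43.6% of all rows that were lower. Without NC replicate 1, 36 were lower and 35 higher, against 45.8% of all rows that were lower, and 2 had an unadjusted p under 0.05, against 3.01% of all rows. The median difference of the 2 other GBPs was -1.27 with all arrays and 0.017 without NC replicate 1, and that of the other IRG and related GTPases was -0.17 and 0.074. In 12 of the 71, NC replicate 1 was at least 1 log2 unit above the mean of the others, against 1.10% of all genes. Both other measured GBPs were among them, Gbp11 at 2.72 and Gbp8 at 2.42. Of 8 other IRG and related GTPases, 2 were, the regulator Irgm2 at 2.16 and the dynamin-like antiviral GTPase Mx2 at 2.60. The testis IRG Irgc1 was at -0.058, from a row at percentile 11.8 of the table, and Irgq was at 0.14. Gm4951 and Gm12250, of the same list, were at 0.60 and 0.31, both from rows below the median row. Atl3, an atlastin and thus a GBP relative of the endoplasmic reticulum, was at 0.39.

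Upstream, none of the 9 interferon ligand genes was high on NC replicate 1. Their excess ran from -0.26 (Ifna1) to 0.39 (Ifnk), with Ifng, which encodes interferon-gamma, at -0.082 and Ifnb1, which encodes interferon-beta, at -0.080, and 6 of the 9 rows were at or below the median row. All 9 receptor and Janus kinase genes had their highest value on NC replicate 1, which was the case for 23.7% of all rows, but by less than 1 log2 unit. Their excess was 0.53 for both Ifngr1 and Ifnar1, 0.42 for Ifngr2 and 0.68 for Ifnar2, which encode the receptor chains for interferon-gamma and type I interferon.

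The transcription factors were split. Irf7, a factor of type I interferon induction, was at 3.84, Stat2 and Irf9, which act together on ISREs, at 2.25 and 2.15, and Irf1, an early interferon-gamma target, at 1.84. The remaining 6 of the 10 measured factors lay between -0.023 and 0.27, with Irf8, a myeloid and lymphoid factor, at -0.0094. Of the 6 negative regulators, Usp18, which restrains type I interferon signalling, was at 5.64 and the other 5 between -0.22 and 0.073, with Socs1 at 0.073.

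The partners of the GTPases at the vacuole differed less. Of 10 genes of the ATG8 conjugation machinery, which helps to direct IRGs and GBPs, 0 were high by 1 log2 unit, with a range from -0.50 (Atg16l1) to 0.64 (Gabarapl1). Of 7 genes for ubiquitin and targeting at vacuoles, the Fc receptor and ubiquitin ligase Trim21 was at 1.37 and the galectin Lgals8, a sensor of damaged vacuoles, at 1.01. Of 9 inflammasome genes, Casp4, which encodes the caspase that senses lipopolysaccharide, was at 1.05 and Gsdmd, the pore-forming gasdermin, at 0.76.

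**Figure D4:**
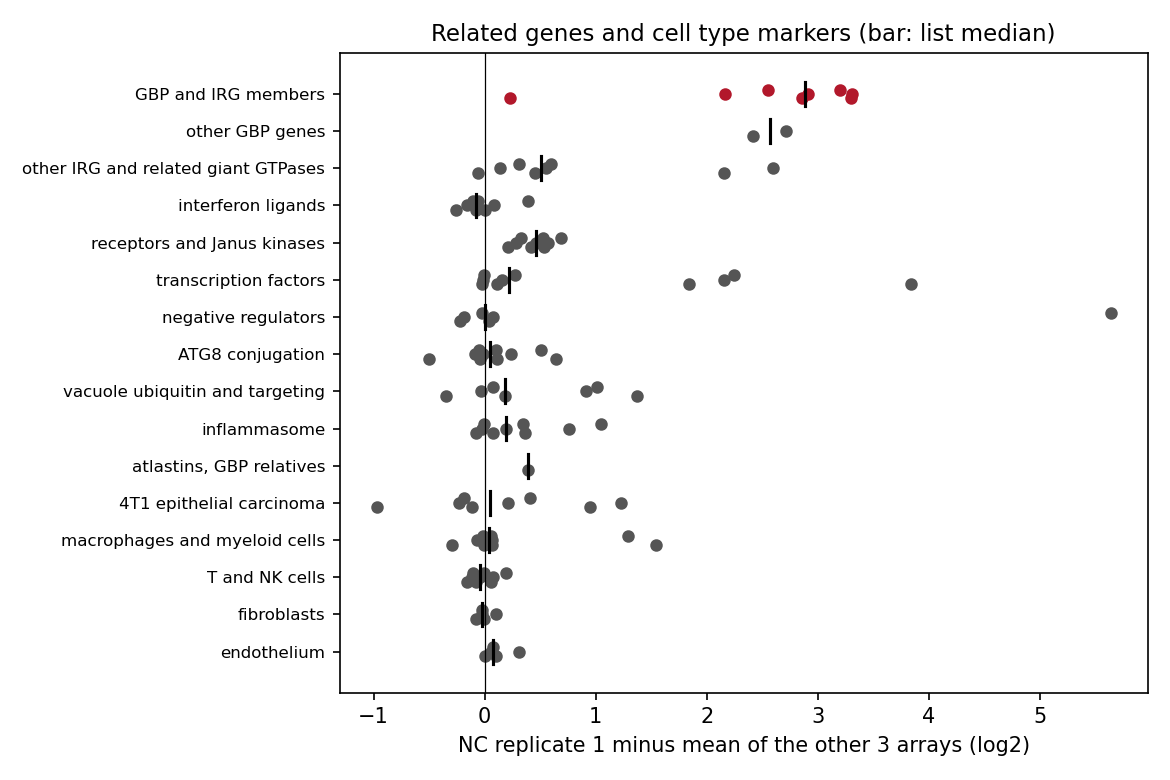
Log2 excess of NC replicate 1 over the mean of the other 3 arrays (horizontal axis) for the measured GBP and IRG members (red), for 10 lists of related genes and for 5 lists of cell type markers (grey), with 1 point per gene and a bar at each list median. The member median is 2.88 and that of the 2 other GBPs is 2.57, while the medians of the other lists lie between -0.080 and 0.51.

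Interferon-induced GTPases are abundant in immune cells, so markers of other cells are set beside them. Of 10 macrophage and myeloid markers, 2 were at least 1 log2 unit higher on NC replicate 1 than on the mean of the others, Cd68 (1.54) and Csf1r (1.29), and their part in the GTPase values was not tested. Of the other 8, Ptprc, Adgre1, Itgam, Lyz2, Fcgr1, C1qa and Aif1 were below the median row, with an excess between -0.065 and 0.064, and Cd14 was brighter, at percentile 88.7 of all rows, with an excess of -0.29. The mean level of the list was 4.77 and 4.44 on the first and second NC array and 4.60 and 4.47 in the shMCT-1-labelled arrays. Of 9 T and NK cell markers 0 were higher by 1 unit, with an excess between -0.16 and 0.20 and list means between 3.34 and 3.44 over the 4 arrays. Fibroblast and endothelial markers lay between -0.079 and 0.31, and 8 of these 10 were at or below the median row. In bulk RNA, more cells of a type and more RNA per cell cannot be told apart.

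Position in the genome was compared through the genes next to the members, 2 on each side of a member, leaving out genes whose symbol or synonym in the RefSeq gene table places them in either family. Of these 20 genes, 0 were at least 1 log2 unit higher on NC replicate 1, against 1.10% of all genes. That count is near the share over all genes and is not read as a result about position. The median excess of the 20 was 0.030, from -0.52 to 0.67. Some of the 20, such as Olfr1395, Bmpr1b and Abcg3, lay below the median row, where signals can be compressed. Among the family genes left out, 9930111J21Rik2 and Gm5431 were at 1.72 and 1.07, and they were singled out after their values were seen. Next to the chromosome 3 cluster, Gtf2b, a general transcription factor, and Kyat3, an aminotransferase, were at -0.17 and -0.062. Next to the chromosome 5 cluster, the volume-regulated anion channel subunits Lrrc8b and Lrrc8c were at 0.13 and -0.39. Of the 20 genes compared, the 15 with a promoter window had an ISRE core in 1 case, against 3.44% of all windows. The 5 members shown above are not set against this count. They were chosen as high on NC replicate 1, and Iigp1 was not searched. The count is a description and no test.

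The genes most like the 8 members were sought among all genes outside the lists, by Euclidean distance over the 4 arrays between profiles centred on their own mean. The 5 nearest were Zbp1 (distance 0.154), Oasl1 (0.292), Oas1g (0.300), Parp14 (0.301) and Acot2 (0.327). For comparison, the members themselves lay at 0.110 (Igtp) to 0.684 (Gbp9), and Iigp1 at 2.34, from their own median profile. Zbp1, a sensor of Z-form nucleic acids, was 7.17 and 4.42 in NC and 4.88 and 4.14 in the shMCT-1-labelled arrays. Acot2, an acyl-CoA thioesterase, was 12.87 and 10.20 in NC and 10.25 and 9.57 in the shMCT-1-labelled arrays. A distance over 4 arrays in which 1 stands apart is a description of these arrays.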

How the data were processed

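The authors deposited log2 expression values per row, made with Affymetrix Expression Console and RMA per the submitters' processing notes; the sources used here name no version, option or build. Values ran from 1.29 to 19.9, and array medians from 3.68 to 3.73. Dim and very bright rows can be compressed. Of 65956 rows, 30604 carried 1 gene symbol, 2146 several, and 33206 were not listed; 827 symbols were updated by gene ID through a GRCm38.p6 gene table. Columns were matched by name and 0 were left out.

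Groups came from the titles. The shMCT-1 minus NC difference was tested two-sided on all rows by limma 3.58.1 (R 4.3.3; lmFit, then eBayes without a trend), p-values were adjusted by Benjamini-Hochberg with 0.05 as the threshold, and the fit had 2 residual and 2.72 prior degrees of freedom. The fit was run on simulated data with known differences and with no array that stands apart. How it behaves with such an array was not checked. The number of arrays limits the precision. The genes and lists were chosen with earlier results of these data known. The plan was to name all members, the 5 most alike genes, and the main ligands, receptors and factors. From each related list it also took up to 4 genes by the size of the NC replicate 1 excess. It was not followed in full, as Gvin1 (excess 0.56) and Sqstm1 (0.91) were among the genes left out above. Cell type markers and other list genes were named with their values in view. The neighbouring genes shown were picked with their values in view. The alternatives were the replicate number as a block, a variance trend, robust moderation, dim or multi-symbol rows left out, quantile normalization, median centring, averaging the rows of each gene, and omitting single arrays.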

Additional observations from a re-analysis of the deposited data

How the results depend on the processing

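The count of 0 passing members was the same under all 12 alternatives of the fit, with a lowest adjusted p of 0.322 (Gbp9, replicate block, limma). With 1 array left out, the median difference, shMCT-1 minus NC, ran from -2.81 to 0.072. The median excess of NC replicate 1 then ran from 2.73 to 3.11. Signs turned without NC replicate 1 for Gbp2 (0.24), Gbp3 (0.14), Gbp4 (0.0035), Gbp7 (0.24) and Igtp (0.20), and in no other alternative; without NC replicate 2 the differences of these genes were -2.77, -2.50, -3.20, -3.23 and -2.84. Quantile normalization and median centring gave median differences of -1.33 and -1.32 and median excesses of 2.94 and 2.91. Each measured member had 1 row, so the mean over rows gave the same values. The replicate number as a block kept the median at -1.29 and the count at 0. Deviations of same-numbered arrays correlated at 0.419 over rows, but with 2 pairs and no label on what a number marks, the numbers were not taken as pairs. A group cut to 1 array borrowed its spread from the other group. Iigp1, below the median row, limits what can be said of the effector IRGs.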

Other observations

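Of further IRG-type genes in the same clusters, 4 were outside the lists but had a row, and the RefSeq gene table gives them IRG synonyms. They were 9930111J21Rik2 (Irgb5) and Gm5431 (Irgb9b8) on chromosome 11 and Gm4841 (Ifgga3) and F830016B08Rik (Ifgga4) on chromosome 18, and they were singled out after their values were seen. 9930111J21Rik2 was 8.56 and 7.67 on the first and second NC array and 6.72 and 6.13 on the shMCT-1-labelled arrays, and Gm5431 was 5.82 and 5.15 against 4.61 and 4.50. NC replicate 1 was highest in both, 1.72 and 1.07 above the mean of the others. The 2 NC arrays also lay above the 2 shMCT-1-labelled arrays, as in 14.0% of all rows, whereas Irgm1 did not separate the groups. Their differences of -1.69 and -0.94 did not pass (adjusted p = 0.882 for each, limma) and were -1.24 and -0.60 without NC replicate 1. Gm4841 and F830016B08Rik lay below the median row, with an excess of 0.45 and -0.061 on NC replicate 1.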
